A study of Mus musculus with 2 samples.

Results

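Ly6a, Ly6c1 and Ly6e are 3 of the 14714 genes counted in single cells of digested mouse aortas, and they are described here across the cell classes and clusters that the authors assigned. They were chosen by name, as the Ly6 surface antigens whose UMI totals (unique molecular identifiers, 1 per captured RNA molecule) had already been seen to differ between libraries. Their levels by class, cluster and library were thus selected on and are a description, with no test. There were 2 libraries, 1 for each genotype, prepared with 10x 3' chemistry from mice kept on a western diet for 12 weeks. One library came from Apoe knockout mice (Apoe−/−), a model of atherosclerosis. The other, labelled DKO, came from EC-iDKO/Apoe−/− mice, which lack Apoe too, and is called the double knockout library. In the line of this name, Epn1 and Epn2 are known to be deleted in endothelial cells by an inducible system. They encode epsins, which help to form clathrin-coated pits. The sources used here do not give the promoter that drives the deletion, the mice pooled per library, their age or the dates of the libraries. The dissociation protocol names CD31 microbeads, which bind endothelial cells, while the label gives the cells as all cells.

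Ly6 proteins are small, disulphide-rich proteins of the Ly6 and uPAR superfamily, and most are held in the outer membrane leaflet by a glycosylphosphatidylinositol (GPI) anchor. Ly6a encodes Sca-1, a surface marker of mouse haematopoietic and mesenchymal progenitors that is also made by arterial and capillary endothelium. Ly6c1 encodes a Ly6C protein that is known for its expression in vascular endothelium, while its close relative Ly6c2 is the Ly6C of inflammatory monocytes. Ly6e encodes a broadly expressed Ly6 protein that is induced by type I interferon and bears on viral entry into cells. Interferons are known to raise Ly6a and Ly6c RNA as well.

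The 3 genes lie close together on chromosome 15. In GENCODE M21 (mouse build GRCm38, of which mm10 is the browser name), Ly6e occupies chr15:74955051-74959905 on the plus strand. Ly6a occupies chr15:74994877-74998031 and Ly6c1 occupies chr15:75044018-75048830, both on the minus strand. The 3 genes thus lie within 93.8 kb. Ly6c2 starts 59.3 kb beyond Ly6c1, at chr15:75108158-75111970 on the minus strand. The coding sequence of Ly6c1 has 396 bases and differs from that of Ly6c2 at 9 of them (97.7% identical), while it is 82.8% identical to Ly6a and 52.2% identical to Ly6e. The end of the coding sequence, bases 307 to 396 counted from the start codon, is shown for the 2 Ly6C genes because 3' tags fall toward this end of a transcript, with the 2 differing bases in capitals:
Ly6c1-201: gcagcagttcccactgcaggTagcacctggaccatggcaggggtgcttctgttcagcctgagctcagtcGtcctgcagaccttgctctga
Ly6c2-201: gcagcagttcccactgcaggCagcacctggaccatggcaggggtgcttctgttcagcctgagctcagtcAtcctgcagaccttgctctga
A read from a stretch that the 2 genes share could align to both. The untranslated 3' ends, where 3' tags also fall, were not compared. How the authors' counting treated reads that align to both genes is not given in the sources used here. Every Ly6c1 value is uncertain in this respect.

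Of the 3 genes, RefSeq promoter sequence was at hand for Ly6c1. The 250 bases before its start (GRCm38.p6, chr15:75048838-75049087, minus strand) are shown because interferon-induced genes are set beside the members further on, with the motif matches in capitals:
Ly6c1 promoter: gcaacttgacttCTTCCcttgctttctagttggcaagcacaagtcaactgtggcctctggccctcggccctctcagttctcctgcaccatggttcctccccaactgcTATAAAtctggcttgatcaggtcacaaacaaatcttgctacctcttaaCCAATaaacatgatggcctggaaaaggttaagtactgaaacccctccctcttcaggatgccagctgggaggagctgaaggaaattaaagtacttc
On both strands, the letters TATAAA occurred once, beginning 143 bases before the start, and are in 12.4% of the 32851 promoter windows of the same length. CCAAT occurred once, 95 bases before the start, and is in 33.8% of windows. The letters GGAAG, the core that ETS factors bind, occurred once, 238 bases before the start, and are in 64.1% of windows. There was no match to the interferon response element repeat GAAANNGAA, which is in 7.13% of windows, to the gamma-activated site TTCNNNGAA (7.02%) or to AGATAA (9.99%). No match says only that these letters are not in this window.

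The libraries differed in depth. The Apoe knockout library held 2428 cells and 13304762 UMIs, with a median of 3770 UMIs per cell. The double knockout library held 5489 cells and 6853185 UMIs, with a median of 769. In all, 5 cell barcodes occurred in both libraries. Levels are UMIs summed over the cells of a population, per 1000000 UMIs of that population (CPM). Intervals are 95% and take in the counting of UMIs alone, so higher and lower describe these 2 libraries and not the genotypes. Epn1 had 9 UMIs in cluster 9, the main endothelial cluster, of the Apoe knockout library (33.7 CPM, interval 15.4 to 64.0) and 2 UMIs in that of the double knockout library (7.95 CPM, 0.962 to 28.7), and Epn2 had 20 UMIs (74.9 CPM) and 25 UMIs (99.3 CPM). The deleted exons are not named in those sources, so 3' tags do not check the deletion.

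By class, the endothelial class EC had the highest value of all 3 genes in both libraries. In the Apoe knockout library, Ly6a stood at 145 CPM (109 to 191) in EC and at 138 CPM (124 to 152) in the class they named modEC, which do not differ beyond counting error. Its level was 16.6 CPM (7.57 to 31.4) in the fibroblast class, 4.42 CPM (1.20 to 11.3) in the immune/inflam class and 1.39 CPM (0.719 to 2.43) in the SMC (smooth muscle) class, where each neighbour's interval overlapped the next. In the double knockout library, Ly6a stood at 1010 CPM (912 to 1116) in the EC class, 76.7 CPM (57.9 to 99.6) in modEC and 8.61 CPM in SMC. It had 0 UMIs in the fibroblast and immune/inflam classes, where 3 UMIs would be 27.9 and 53.6 CPM. The order of EC, modEC and SMC was thus the same, with EC and modEC overlapping in the Apoe knockout library and apart in the double knockout library.

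Ly6c1 had the same top classes. Its levels in the Apoe knockout library were 81.0 CPM (54.3 to 116) in EC, 53.5 CPM (45.4 to 62.7) in modEC, 7.73 CPM in immune/inflam and 1.39 CPM in SMC, with 0 UMIs in the fibroblast class, where 3 UMIs would be 5.52 CPM. In the double knockout library they were 773 CPM (688 to 866) in EC, 20.5 CPM (11.5 to 33.9) in modEC and 6.10 CPM in SMC, with 0 UMIs in the other classes. The intervals of EC and modEC overlapped in the Apoe knockout library and lay apart in the double knockout library.

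Ly6e was spread over more classes. In the Apoe knockout library it stood at 330 CPM (273 to 395) in EC, 159 CPM (134 to 187) in immune/inflam, 54.9 CPM (46.7 to 64.2) in modEC, 31.3 CPM (18.2 to 50.1) in fibroblast and 2.78 CPM (1.78 to 4.14) in SMC. In the double knockout library it stood at 687 CPM (607 to 775) in EC, 71.4 CPM (19.5 to 183) in immune/inflam, 61.6 CPM (45.0 to 82.5) in modEC, 55.8 CPM (20.5 to 121) in fibroblast and 12.0 CPM (9.31 to 15.3) in SMC. Immune/inflam, modEC and fibroblast could not be ordered in the double knockout library, since the immune/inflam value rests on 4 UMIs and that of the fibroblast class on 6.

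**Figure D1:**
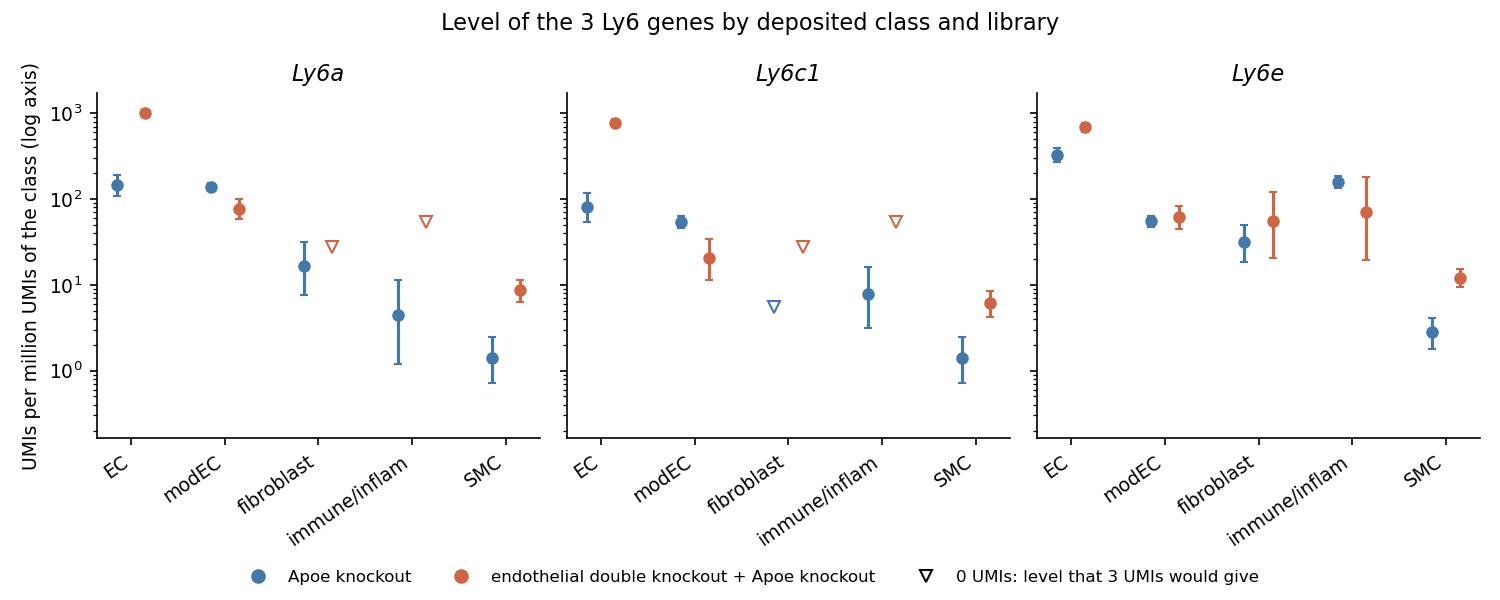
Level of Ly6a, Ly6c1 and Ly6e (CPM of the class, log axis) in the 5 deposited classes of each library, with 95% Poisson intervals; open triangles mark classes with 0 UMIs, drawn at the level that 3 UMIs would give. The EC class is the highest in every panel, and its double knockout value lies above its Apoe knockout value for each gene, while Ly6a and Ly6c1 are lower in the modEC class of the double knockout library.

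The bulk of the transcripts lay in different cells in the 2 libraries. The modEC class held 83.7% of the 473 Ly6a UMIs of the Apoe knockout library and the EC class 11.0%. In the double knockout library the modEC class held 11.4% of 492 Ly6a UMIs and the EC class 78.9%. For Ly6c1, the modEC class held 76.2% of 202 UMIs in the Apoe knockout library, and the EC class held 85.8% of 346 in the double knockout library. The weight of the classes differed too. Of all UMIs, the modEC class held 2878292 of 13304762 in the Apoe knockout library and 730056 of 6853185 in the other. The EC class held 357868 and 384140 of these totals. The part of class weight in the shares above and in the ratios over whole libraries was not tested. Over whole libraries the double knockout level was 2.02 times that of the Apoe knockout for Ly6a (1.78 to 2.30), 3.33 times for Ly6c1 (2.79 to 3.98) and 1.63 times for Ly6e (1.42 to 1.86). A gene was called higher or lower where the ratio was at least 1.5 in either direction, the interval did not hold 1 and there were at least 20 UMIs over both libraries. By this rule all 3 members were higher over whole libraries, beside 9.53% of all 13257 genes compared (13.1% were lower). These shares give the background only, since this contrast was used to choose the members. With each cell thinned to 1000 UMIs the Ly6a ratio was 3.38, and the Ly6e ratio was 1.41, under the fold of 1.5.

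Endothelial cluster 9 is the main body of the EC class, with 96 Apoe knockout and 287 double knockout cells. Its 14 endothelial marker genes summed to 2865 CPM in the Apoe knockout cells, with 1 of the 14 at 0, and to 4872 CPM in the double knockout cells, with none at 0. In the SMC class they summed to 208 and 236 CPM. The contractile smooth muscle list was also high in cluster 9, at 35073 and 33457 CPM. Its leading genes included the arterial genes Bmx and Gja5 in the former and Gja5 and Vwf, the von Willebrand factor gene, in the latter. Ly6a had 34 UMIs in the Apoe knockout cells (127 CPM) and 180 in the double knockout cells (715 CPM), a ratio of 5.62 (3.88 to 8.36). Ly6c1 had 21 UMIs (78.7 CPM) and 85 UMIs (338 CPM), a ratio of 4.29 (2.64 to 7.29). Ly6e had 82 UMIs (307 CPM) and 159 UMIs (632 CPM), a ratio of 2.06 (1.57 to 2.72). All 3 were called higher, beside 7.2% of the 4109 genes compared there (8.79% were lower). Ordered by ratio, Ly6a stood 9th, Ly6c1 25th and Ly6e 213th of those genes. Among cluster 9 cells without a leukocyte marker UMI, described in the next paragraphs, they stood 577th, 699th and 1649th of 2807 genes. The ranks, like the levels, were selected on and are a description.

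The cells of cluster 9 were not alike in the 2 libraries. In the Apoe knockout library, 76 of the 96 cells held at least 1 UMI of a macrophage, T cell or B cell marker, against 5 of 287 in the double knockout library. The libraries differed in this way outside cluster 9 too. In the SMC class, 1078 of 1536 Apoe knockout cells held no such UMI, against 4321 of 4407 double knockout cells. The median depth in cluster 9 was 2132 and 711 UMIs, and the part of depth in this split was not tested. In cluster 9, the 11 macrophage markers summed to 615 UMIs (2304 CPM) with 10 detected in the Apoe knockout cells, and to 5 UMIs (19.9 CPM) with 8 at 0 in the double knockout cells. Other lists differed as well, in the order Apoe knockout and double knockout: the adventitial fibroblast and progenitor list stood at 4041 and 1371 CPM, the modulated smooth muscle list at 4776 and 2380 CPM and the erythroid list at 0 and 683 CPM. The adventitial and modulated lists both hold the genes Lum and Dcn. The part of all these list differences in the Ly6 ratios was not tested. The 76 Apoe knockout cells held 1526 CPM of the endothelial marker list and the other 20 held 6509 CPM, at similar median depths of 2168 and 2024 UMIs. Cdh5, the endothelial cadherin, stood at 46.1 CPM in the 76 cells and at 571 CPM in the 20.

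All 3 Ly6 transcripts were, like the endothelial markers, higher in the 20 cells. Ly6a stood at 20.5 CPM (4 UMIs) in the 76 Apoe knockout cells with a leukocyte UMI and at 418 CPM (30 UMIs, 282 to 597) in the 20 without. Of those 30 UMIs, 25 were in 1 cell, described next, and the other 19 cells stood at 101 CPM (5 UMIs, 32.6 to 235). Ly6c1 stood at 30.7 CPM (6 UMIs) and 209 CPM (15 UMIs, 117 to 345), and Ly6e at 159 CPM (31 UMIs) and 711 CPM (51 UMIs, 529 to 935). In the 282 double knockout cells without a leukocyte UMI the levels were 707 CPM for Ly6a (606 to 820), 319 CPM for Ly6c1 (253 to 398) and 634 CPM for Ly6e (539 to 741). Among cells without a leukocyte UMI, the library ratio was thus 1.69 for Ly6a (1.14 to 2.58), 1.53 for Ly6c1 (0.872 to 2.85) and 0.892 for Ly6e (0.647 to 1.25). Of the 3, Ly6a alone was called higher there, beside 8.8% of the 2807 genes compared (9.58% were lower), and the Ly6e interval held 1. Per 100 UMIs of the endothelial marker list in the whole of cluster 9, there were 4.44 Ly6a UMIs in the Apoe knockout library and 14.7 in the other, 2.75 and 6.93 Ly6c1 UMIs, and 10.7 and 12.97 Ly6e UMIs. The part of the leukocyte-bearing cells in these ratios was not tested beyond these values.

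A single cell also weighed on Ly6a. In the Apoe knockout library 8 of the 96 cluster 9 cells held Ly6a, and 1 cell held 25 of the 34 UMIs. That cell had 21998 UMIs in all, where the cluster's median was 2132, with 37 UMIs of Pecam1 and 20 of Cdh5 but also 158 of Dcn (decorin, a fibroblast matrix gene), 16 of Ly6e and 0 of Ly6c1. Without it, Ly6a stood at 36.7 CPM in the Apoe knockout cells. Leaving out the top cell of each library gave a Ly6a ratio of 18.8 (9.70 to 41.9), and doing so among cells without a leukocyte UMI gave 6.80 (2.86 to 21.2). No single cell held more than 8 of the 180 Ly6a UMIs in the double knockout library. The Ly6a ratio thus ranged from 1.69 to 19.6 with the choice of cells and depth, and was above 1.5 under each of the 10 settings computed.

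**Figure D2:**
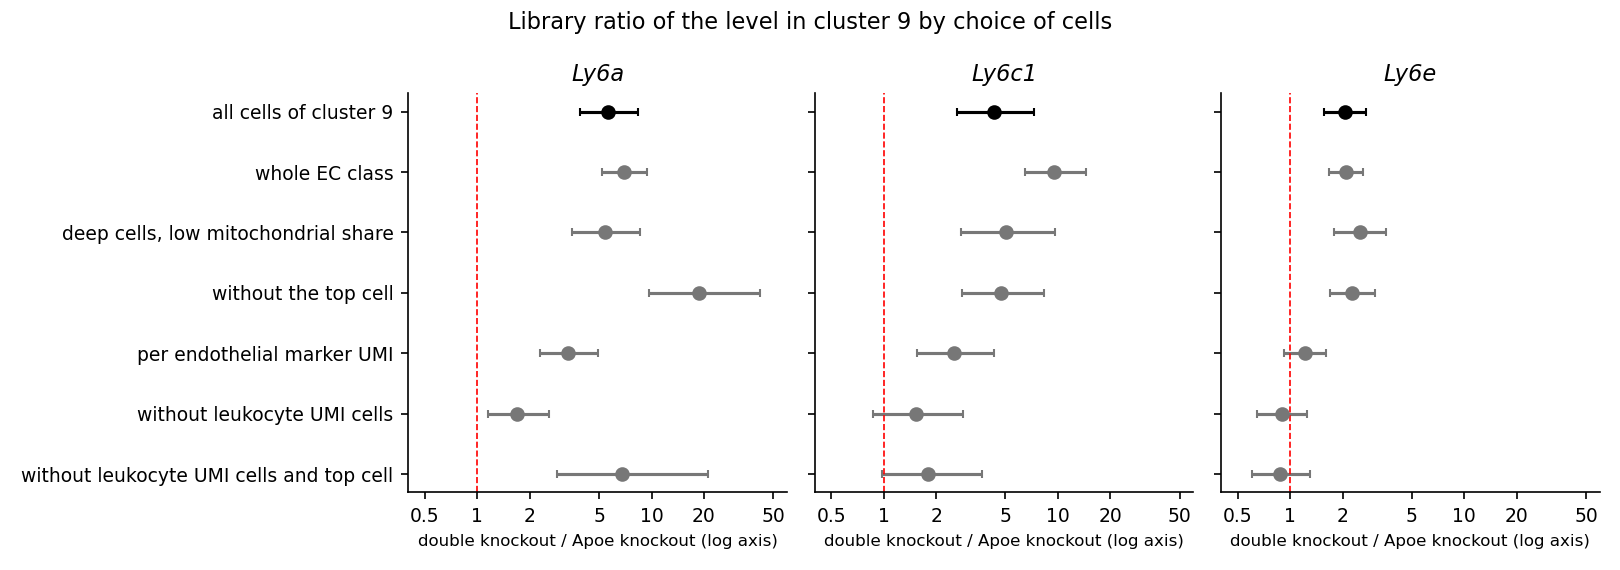
Ratio of the level in the double knockout over the Apoe knockout library (log axis) in cluster 9, for all cells (black) and under other choices of cells or divisor (grey), with 95% intervals for counting error; the dashed line is a ratio of 1. Ly6a stays to the right of the line under each choice drawn, Ly6c1 crosses it with its interval where cells with a leukocyte UMI are left out, and Ly6e falls to 0.892 there.

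Seen by cell, Ly6a was detected in 8.33% of the Apoe knockout cells of cluster 9 (3.67% to 15.8%) and 33.8% of the double knockout cells (28.3% to 39.6%), although the latter were shallower, with a median of 711 UMIs. Ly6c1 was detected in 13.5% and 23.3% of cells, and Ly6e in 38.5% and 36.2%. After thinning each cell to 1000 UMIs, which left out 2 Apoe knockout and 228 double knockout cells, the shares were 3.19% (0.663% to 9.04%) and 35.6% (23.6% to 49.1%) for Ly6a, 5.32% and 27.1% for Ly6c1, and 24.5% (16.2% to 34.4%) and 44.1% (31.2% to 57.6%) for Ly6e. In smooth muscle cells, thinned in the same way, the shares were 0.0694% and 0.985% for Ly6a, 0.139% and 0.46% for Ly6c1 and 0.486% and 1.44% for Ly6e. The shares in cluster 9 thus lie well above those in smooth muscle, a cell type with little of these genes.

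In cluster 9, cells with Ly6a held the other members more often than cells without it. In those of the Apoe knockout library, all 8 cells with Ly6a also held Ly6e, against 33.0% of the cells without Ly6a, and 6 of the 8 held Ly6c1, against 7.95%. In the double knockout cells, 46.4% of the 97 cells with Ly6a held Ly6e, against 31.1% of the rest, and 35.1% held Ly6c1, against 17.4%. All 3 genes were found in 6 of 96 and 22 of 287 cells, and none of them in 56 and 113 cells. Of the 8 Apoe knockout cells with Ly6a, 5 were among the 20 without a leukocyte UMI. Ly6e was found in 60% of those 20 cells and Ly6c1 in 40%, against 32.9% and 6.58% of the other 76. Cells with Ly6a were somewhat deeper (medians of 2474 against 2104 UMIs, and of 764 against 684). The parts of depth and of these unlike cells in co-detection were not tested.

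**Figure D3:**
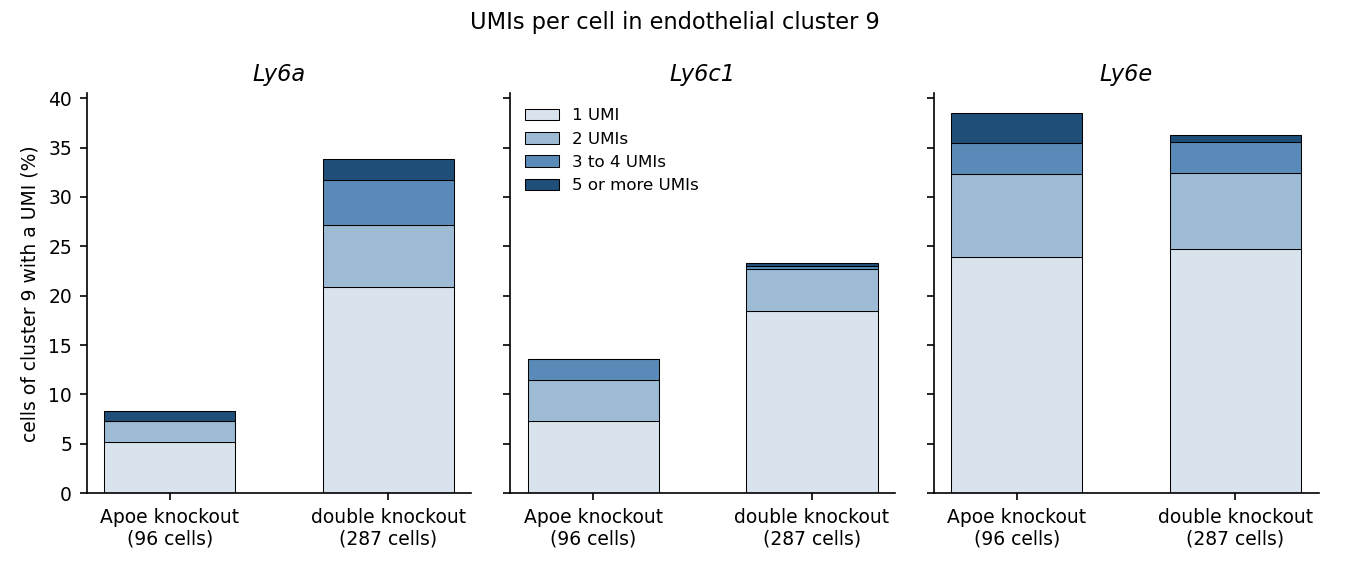
Share of the cells of cluster 9 (%) with 1, 2, 3 to 4, or 5 or more UMIs of each gene, by library (96 and 287 cells). Ly6a is found in 8.33% of cells in the Apoe knockout library and 33.8% in the other, whereas Ly6e is found in 38.5% and 36.2%.

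The small endothelial clusters of the double knockout library held high levels, and cluster 19 the highest of its clusters for Ly6a and Ly6e. EC cluster 19, whose leading genes included the arterial genes Sema3g and Dll4, had 67 double knockout cells with 189 Ly6a UMIs (1833 CPM), 164 Ly6c1 UMIs (1590 CPM) and 88 Ly6e UMIs (853 CPM). Of these cells, 66 held at least 1 of the 3 genes and 33 held all 3. The Apoe knockout library had 9 such cells, with 13, 7 and 12 UMIs (411, 221 and 379 CPM), of which 1 cell held all 7 Ly6c1 and 10 of the 13 Ly6a UMIs. These 9 cells are too few to set against the 67, and they held 152 UMIs of the macrophage list, against 0 in the 67.

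EC cluster 20 held different cells in the 2 libraries, so its levels are given side by side only. Its 25 Apoe knockout cells had the T cell genes Cd3g and Cd3d among their leading genes and had 5 Ly6a, 1 Ly6c1 and 24 Ly6e UMIs (88.4, 17.7 and 424 CPM). Its 26 double knockout cells led with Kdr (a receptor of vascular endothelial growth factor), Gpihbp1 and Cd36, and Ly6c1 was 4th among their leading genes, with 48 UMIs (1636 CPM). They had 19 Ly6a and 17 Ly6e UMIs (648 and 579 CPM).

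Smooth muscle cells held very little of the 3 genes, and more in the double knockout library. In the SMC class, Ly6a had 12 UMIs among 1536 Apoe knockout cells (1.39 CPM) and 48 among 4407 double knockout cells (8.61 CPM), a ratio of 6.18 (3.24 to 12.8). Ly6c1 had 12 and 34 UMIs, a ratio of 4.38 (2.21 to 9.29), and Ly6e had 24 and 67 UMIs, a ratio of 4.32 (2.67 to 7.20). All 3 were called higher, beside 10.5% of 12000 genes compared (7.52% were lower). The 14 endothelial markers summed in the SMC class to 208 CPM in the Apoe knockout library and 236 CPM in the other, with none at 0 in either. Nearly all cells with Ly6a in this class held a single UMI (12 of 12 and 43 of 45). Without cluster 15, which is described further on, the ratios were 5.08 for Ly6a, 2.34 for Ly6c1 (1.07 to 5.33) and 3.34 for Ly6e. Thinned to 1000 UMIs per cell, the Ly6a ratio was 14.2, from 1 and 15 UMIs (2.18 to 597), and the Ly6e ratio was 2.63. The part of free RNA from endothelial cells in these UMIs was not tested.

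The fold between endothelial and smooth muscle cells was large in both libraries. Ly6a in cluster 9 was 91.5 times its SMC level in the Apoe knockout library (46.2 to 194) and 83.1 times in the double knockout library (60.1 to 117). Ly6c1 was 56.5 times (26.5 to 126) and 55.4 times (36.8 to 85.0), and Ly6e was 110 times (69.3 to 182) and 52.6 times (39.3 to 71.0). The members' 3 ratios were past the rule of size in each library, beside 8.27% of genes higher in cluster 9 in the Apoe knockout library and 7.27% in the other. Without the top cell named above, the Ly6a ratio in the Apoe knockout library was 26.4, and without cells with a leukocyte UMI it was 300.4. With all cells, the Ly6a and Ly6c1 ratios of the 2 libraries lay within each other's intervals.

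Summed over the class named modEC, Ly6a and Ly6c1 were lower in the double knockout library, but the class pools clusters whose weight differed. Ly6a had 396 UMIs in the Apoe knockout (138 CPM) and 56 in the double knockout library (76.7 CPM), a ratio of 0.558 (0.414 to 0.739). Ly6c1 had 154 and 15 UMIs, a ratio of 0.384 (0.210 to 0.653). Ly6e had 158 and 45 UMIs, a ratio of 1.12 (0.788 to 1.57). So 2 of the 3 were called lower and none higher, beside 8.2% and 9.23% of the 9915 genes compared. Cluster 8, which held most of the Ly6a UMIs of the class, made up 52.8% of all its UMIs in the Apoe knockout library and 27.9% in the other, while cluster 7, with little Ly6a, made up 21.5% and 57.6%. Ly6a was not called lower within its 3 largest clusters: its ratio was 0.761 (0.530 to 1.06) in cluster 8, 5.79 (2.33 to 13.8) in cluster 10, and 3.92 (1.19 to 16.7) in cluster 7, where 4 and 12 UMIs are under the minimum.

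Cluster 8 was no endothelial population by its markers. Of the 14 endothelial markers 11 were detected, but they summed to 272 CPM in the Apoe knockout library and 396 CPM in the other, against 2865 and 4872 CPM in cluster 9. The adventitial fibroblast and progenitor list summed to 24025 and 8257 CPM, and the contractile smooth muscle list to 14850.2 and 21466 CPM. The modulated smooth muscle list summed to 31846.5 and 18174.5 CPM and the chondrocyte-like list to 8057 and 747 CPM, so these cells too differed between the libraries. Lum and Dcn are in both the adventitial and the modulated list, so those sums count some of the same UMIs. In the Apoe knockout cells of this cluster with a Ly6a UMI, Dcn had 8940, Lum 5924 and Col1a1 5605 UMIs. Every other measured gene of the adventitial list had 550 or fewer there. Ly6a had 375 UMIs in 184 Apoe knockout cells (244 CPM) and 38 UMIs in 148 double knockout cells (186 CPM), and was not called by the rule of size. Ly6c1 had 144 UMIs (93.7 CPM) and 9 UMIs (43.9 CPM), a ratio of 0.469 (0.210 to 0.916). Ly6e had 133 UMIs (86.5 CPM) and 30 UMIs (146 CPM), a ratio of 1.69 (1.10 to 2.53). Ly6c1 was thus called lower and Ly6e higher, beside 5.38% and 7.98% of 7943 genes. The median depth of cluster 8 was 4712.5 UMIs (Apoe knockout) and 821.5 UMIs (double knockout). Of the 176 and 51 cells that could be thinned to 1000 UMIs, 5.11% and 5.88% held Ly6c1 (13 and 3 UMIs). Ly6e was held by 4.55% and 5.88% of them (12 and 6 UMIs), and the intervals overlapped for both genes. A single Apoe knockout cell held 29 of the 144 Ly6c1 UMIs. The part of depth in these calls was not tested. The leading genes of cluster 8 included Slurp1 and Ptn in the Apoe knockout library. In the double knockout library they included Ccl5, the cell cycle gene Cenpf, Dcn, Lum and Spp1.

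Among clusters of at least 20 cells in the Apoe knockout library, cluster 8 had the highest level of Ly6a, and of Ly6c1 with an interval that overlapped that of cluster 9. In cluster 8 Ly6a was detected in 58 of the 184 cells, of which 19 held at least 5 UMIs and 1 held 56. These 58 cells held 137 of the 144 Ly6c1 UMIs (164 CPM, against 9.95 CPM in the other 126 cells) and 111 of the 133 Ly6e UMIs (133 against 31.3 CPM). Cd34, a surface marker shared by progenitors and endothelium, stood at 128 CPM (105 to 155) in them and at 34.1 CPM (21.9 to 50.7) in the rest. Pi16, a marker of adventitial fibroblasts, was lower in them, with 9.59 CPM (4.14 to 18.9) and 61.1 CPM (44.2 to 82.3). Other genes of the adventitial fibroblast and progenitor list went both ways. Lum stood at 7104 and 4958 CPM and Col1a1 at 6721 and 9628 CPM. Pdgfra, Dpt, Clec3b, Gsn and Serpinf1 had higher values in the cells with Ly6a and Mfap5 a lower one, all with overlapping intervals. Dcn stood at 10720 and 6321 CPM, the smooth muscle myosin gene Myh11 at 700 and 1836 CPM, and Cdh5 at 0 UMIs and 1 UMI. The cells with Ly6a were deeper, with a median of 11628.5 against 3045 UMIs, and the part of depth in this split was not tested. In the double knockout library 28 of 148 cells held Ly6a, none with 5 or more UMIs, and the split was not the same. Ly6c1 stood at 195.5 CPM (6 UMIs, 71.7 to 426) in the 28 cells and at 17.2 CPM (3 UMIs, 3.55 to 50.4) in the other 120. Ly6e stood at 130 CPM (35.5 to 334) and 149 CPM (97.6 to 219), and Cd34 at 163 CPM (52.9 to 380) and 103 CPM (61.3 to 163). Pi16 had 5 UMIs in each, 163 CPM (52.9 to 380) and 28.7 CPM (9.32 to 67.0), which is not the direction seen in the Apoe knockout library.

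**Figure D4:**
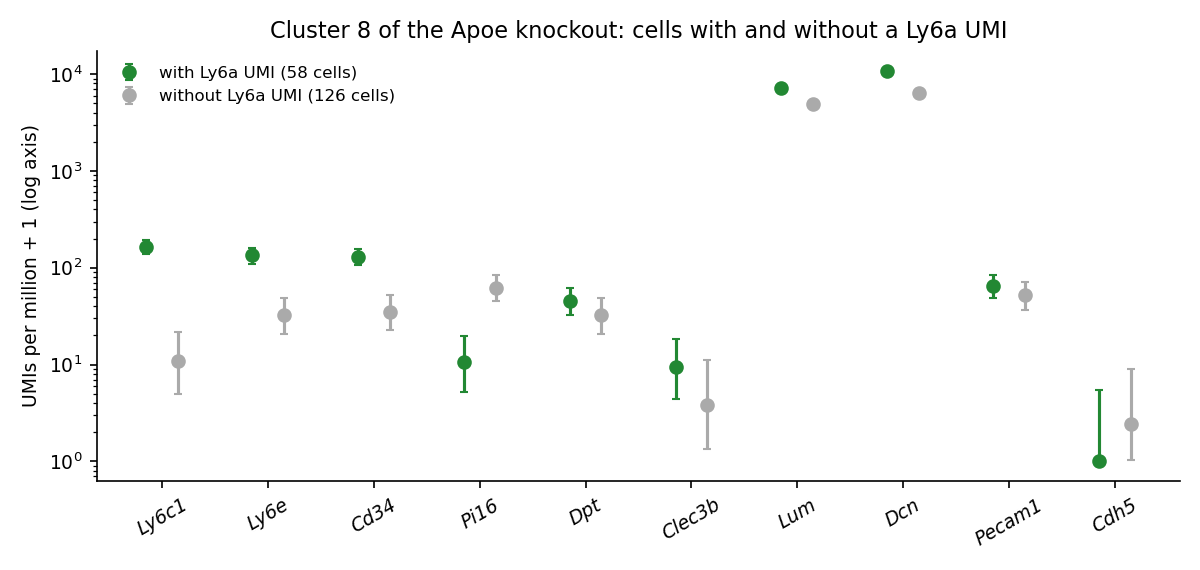
Level (CPM + 1, log axis) of Ly6c1, Ly6e and other genes in the 58 cells with and the 126 cells without a Ly6a UMI in cluster 8 of the Apoe knockout library, with 95% Poisson intervals. Ly6c1, Ly6e, Cd34, Lum and Dcn are higher and Pi16 is lower in the cells with Ly6a. Dpt, Clec3b and Pecam1 have overlapping intervals, and Cdh5 has at most 1 UMI in either set.

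Other populations held few UMIs, apart from Ly6e in cluster 13, which is mostly of the immune/inflam class. Its 144 Apoe knockout cells held 142 Ly6e UMIs (164 CPM), or 30.8% of the Ly6e UMIs of that library. Its 53 double knockout cells held 4 Ly6e UMIs (81.9 CPM), a ratio of 0.499 whose interval held 1 (0.134 to 1.31). Ly6a had 3 UMIs and Ly6c1 7 UMIs there in the Apoe knockout library, and both had 0 in the double knockout library. The cells of cluster 13 also differed between the libraries. The macrophage list stood at 16617 and 4814 CPM and the contractile smooth muscle list at 14914 and 42013 CPM. The part of this in the Ly6e ratio was not tested. In cluster 14, mostly of the fibroblast class, Ly6c1 had 0 UMIs in both libraries. Cluster 15 held different cells in the 2 libraries: its double knockout cells led with the fat cell genes Cidec, Retn and Adipoq, and the adipocyte list stood at 587 CPM in the Apoe knockout library and 61279 CPM in the other, the capillary endothelial list at 495 and 16425 CPM. Side by side, Ly6c1 had 0 UMIs among 80 Apoe knockout cells and 16 among 80 double knockout cells (150.5 CPM). In cluster 10, Ly6a had 15 UMIs (24.9 CPM) and 10 UMIs (144 CPM). The cells of cluster 10 differed too, with the chondrocyte-like list at 29600 and 418 CPM and the adventitial fibroblast and progenitor list at 18504 and 2006 CPM, and the part of this in the Ly6a ratio was not tested.

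**Figure D5:**
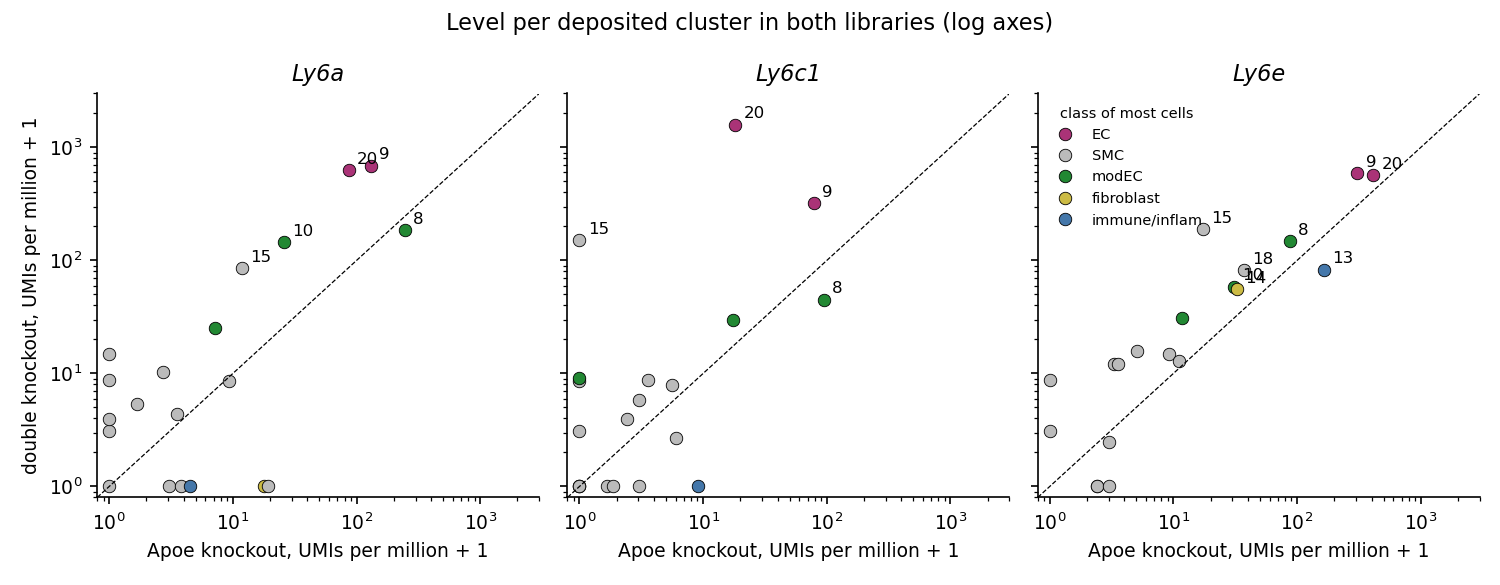
Level per deposited cluster in the Apoe knockout library (x) against the double knockout library (y), as CPM + 1 on log axes, for clusters with at least 20 cells in both libraries, coloured by the class of most of their cells; the dashed line is equality. Clusters 9 and 20 lie above the line in each panel, cluster 8 lies below it for Ly6a and Ly6c1, and the smooth muscle clusters other than cluster 15 stay at or under 80.6 CPM.

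Across the 20 clusters with at least 20 cells in both libraries, Ly6a and Ly6c1 had alike patterns, with Pearson correlations of log2(CPM + 10) of 0.862 (Apoe knockout library) and 0.922 (double knockout library). Clusters share a library and its depth, so these values are descriptions. Among 4341 genes with at least 200 UMIs in each library, a minimum that Ly6c1 missed within these clusters, the genes most like Ly6a were Ppp3ca (a calcineurin subunit, mean correlation 0.826), Ly6e (0.808), the endothelial phosphatase gene Ptprb (0.719), Pecam1 (0.711) and Icam1 (0.685). Those most like Ly6c1 were Ly6a (0.892), Ly6e (0.758), Ppp3ca (0.727), Ptprb (0.708) and Plvap (0.677), the last encoding the diaphragm protein of endothelial fenestrae. Those most like Ly6e were Slc3a2 (0.854), Ptprb (0.814), Tpm3 (0.812), Ly6a (0.808) and Ppp3ca (0.804).

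The wider Ly6 and uPAR family list had 35 genes, of which 13 were columns of the count table analysed here. In cluster 9, 4 of them reached 20 UMIs: the 3 members, all higher, and Cd59a, which encodes an inhibitor of the complement membrane attack complex and was lower, with 29 UMIs (109 CPM) and 13 UMIs (51.7 CPM), a ratio of 0.476 (0.227 to 0.944). Without cells with a leukocyte UMI, Cd59a had 6 and 13 UMIs, under the minimum. Lynx1, a modulator of nicotinic receptors, had 9 UMIs in each library, Plaur, the urokinase receptor, 6 in each, Cd59b 1 in each and Ly6g6d 2 and 1. Ly6k, Gpihbp1, Lypd1, Lypd6 and Slurp1 had 0 UMIs in cluster 9 of both libraries.

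Outside cluster 9, 2 family genes were detected in a single library. Gpihbp1, which anchors lipoprotein lipase on capillary endothelium, had 0 UMIs in the whole Apoe knockout library and 51 in the double knockout library, 21 of them in EC cluster 20 and 25 in cluster 15. Slurp1, a secreted family protein known from epithelia, had 204 of its 218 Apoe knockout UMIs in cluster 8 (133 CPM) and 0 UMIs in the double knockout library. In the SMC class, 9 family genes reached 20 UMIs, of which the 3 members and Gpihbp1 were called higher and none lower. Gpihbp1 had 0 and 30 UMIs in that class, to which most double knockout cells of cluster 15 belong. Cd59a there stood at 105 and 88.6 CPM (ratio 0.844) and Lynx1 at 32.1 and 28.3 CPM (ratio 0.882). In cluster 8, 7 family genes reached 20 UMIs, with 1 higher (Ly6e) and 2 lower (Ly6c1 and Slurp1).

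The genes that make the GPI anchor were few in cluster 9. Of the 28 listed genes measured, 5 reached 20 UMIs there and none was called in either direction, with a median log2 ratio of 0.09 beside -0.02 over all genes compared. Dpm3, a subunit of the enzyme that makes the mannose donor of the anchor, had a ratio of 0.512 (lower bound 0.25, upper bound 1.00), and Dpm1, its catalytic subunit, 1.63 (0.773 to 3.57). Dpm2 had a ratio of 1.14 (0.512 to 2.54) and Pigk, of the complex that attaches the anchor, 0.778 (0.323 to 1.81). In the SMC class, 27 were compared, of which 4 were higher and 1, Dpm3, was lower (0.519, 0.456 to 0.588), beside 10.5% and 7.52% of all genes.

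Of 48 interferon-induced genes measured, 13 reached 20 UMIs in cluster 9, of which 9 were called higher in the double knockout library and none lower, beside 7.2% and 8.79% of all genes. Their median log2 ratio was 1.02 beside -0.02. The 4 with the largest ratios were the GTPase gene Iigp1 (4 and 21 UMIs, 5.57, 1.88 to 22.3), the immunoproteasome gene Psmb10 (10 and 27 UMIs, 2.86, 1.34 to 6.63), the antiviral membrane gene Ifitm3 (116 and 311 UMIs, 2.84, 2.29 to 3.55) and Parp14 (7 and 18 UMIs, 2.73, 1.09 to 7.73). Without cells with a leukocyte UMI, 10 reached 20 UMIs and none was called in either direction, beside 8.8% higher and 9.58% lower of all genes, with a median log2 ratio of 0.09 beside 0.01 over all genes. Ifitm3 then had a ratio of 1.34 (1.02 to 1.77) and Psmb10 1.08 (0.455 to 2.94). Iigp1 rested on 1 and 21 UMIs (6.09, 0.979 to 252).

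A separate list holds the interferon receptors, kinases and transcription factors. Of 18 genes, 8 reached 20 UMIs in cluster 9, of which 2 were higher: the transcription factor gene Irf1 (27 and 64 UMIs, 2.51, 1.58 to 4.10) and Ifngr1, of the interferon gamma receptor (28 and 60 UMIs, 2.27, 1.43 to 3.70). Ifnar2 had a ratio of 1.97 (0.992 to 4.08) and Stat3 1.29 (0.839 to 2.01). Without cells with a leukocyte UMI, Irf1 was the 1 gene of 7 still called higher (3 and 63 UMIs, 6.09, 1.99 to 30.3), while Ifngr1 had 1.58 (0.823 to 3.33). In the SMC class, 16 of 35 interferon-induced genes and 5 of 17 of this list were higher and none lower, beside 10.5% and 7.52% of all genes, with median log2 ratios of 0.86 and 0.47 beside 0.03. In cluster 8, 8 of 19 interferon-induced genes were higher and 1, Cxcl10, was lower, beside 7.98% and 5.38% of all genes. Of the members, Ly6e was called higher there (1.69, 1.10 to 2.53), Ly6c1 was called lower (0.469, 0.210 to 0.916) and Ly6a was not called (0.761, 0.530 to 1.06). A link between the members and interferon was not tested.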

How the data were processed

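The deposited count table gives UMI counts per cell and gene, made with Cell Ranger and Seurat on mm10 per the submitters' processing notes, whose versions and annotation those notes do not give. Classes and cluster numbers are the authors' own names in the deposited metadata, a unit of other kind, and modEC is not spelled out there. The mitochondrial share per cell is a deposited fraction. Of 10345 deposited cell entries, 2428 Apoe knockout cells occurred a second time with identical counts and were counted once, leaving 7917. The members and gene lists were chosen with earlier results of these data known.

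With 1 library per genotype there is no test: no p-value or standard error was computed. UMIs were summed per population and scaled to 1000000 (CPM), with exact Poisson intervals for sums, exact conditional binomial intervals for ratios and Clopper-Pearson intervals for shares, at 95% (Python 3.11.15, scipy 1.17.1). They treat UMIs as independent. For ranks, log2 ratios of lists and leading genes, a count of 0 was set to a floor of 3 UMIs. Calls and intervals used the counts without a floor. Calls needed a ratio of 1.5 in either direction, an interval without 1 and 20 UMIs, a rule tested on simulated data. No doublet caller was run. Named were the 3 members, every family gene measured, up to 4 genes per other list with the largest absolute log2 ratio in cluster 9, the 5 most alike genes per member, and markers beside a result; Epn1, Epn2, Cxcl10, the leading genes of clusters, and the genes of the cluster 8 split were named after their values were seen. The leukocyte split used macrophage, T cell and B cell markers. Promoters are from RefSeq (GRCm38.p6), where 1 of the 3 members matched, and coding sequences from GENCODE M21. Alternatives are in the closing section.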

Additional observations from a re-analysis of the deposited data

Results flagged for a closer look

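Summed over classes, Ly6a and Ly6c1 each differed between the libraries in a direction that depended on the class. Ly6a was higher in the double knockout library in the EC class (ratio 6.95), in cluster 9 (5.62) and in the SMC class (6.18), and lower in the modEC class (0.558, interval 0.414 to 0.739). That class pools clusters, and Ly6a was not called lower in cluster 8 (0.761, 0.530 to 1.06), cluster 10 (5.79, 2.33 to 13.8) or cluster 7 (3.92, 1.19 to 16.7, on 4 and 12 UMIs), while cluster 8 made up 52.8% of the class's UMIs in the Apoe knockout library and 27.9% in the other. Ly6c1 was higher in the EC class (9.54), where clusters 19 (9 Apoe knockout cells) and 20 (different cells in each library) held 164 and 48 of the 297 double knockout UMIs. It was also higher in cluster 9 (4.29) and in the SMC class (4.38), and lower in the modEC class (0.384, 0.210 to 0.653) and in its cluster 8 (0.469, 0.210 to 0.916). Cluster 8 had median depths of 4712.5 and 821.5 UMIs, and the part of depth in its ratio was not tested. Thinned to 1000 UMIs, 5.11% and 5.88% of its cells held Ly6c1, on 13 and 3 UMIs. The difference between the populations was not tested, since each genotype had 1 library. In cluster 9 without cells with a leukocyte UMI, the Ly6c1 ratio was 1.53 with an interval that held 1 (0.872 to 2.85).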

How the results depend on the processing

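Dividing by size factors or by totals without mitochondrial and ribosomal protein genes left each of the 15 ratios within its main interval. Leaving out cluster 9 cells with a leukocyte marker UMI turned the Ly6e library ratio to 0.892 and gave 1.69 for Ly6a and 1.53 for Ly6c1, and raised the ratio of cluster 9 over smooth muscle in the Apoe knockout library to 300.4 for Ly6a, 150.2 for Ly6c1 and 255 for Ly6e. When the top cell was left out as well, the library ratios were 6.80 for Ly6a, 1.80 for Ly6c1 and 0.873 for Ly6e. Leaving out the top cell alone gave 18.8 for Ly6a in cluster 9 and 26.4 for its ratio over smooth muscle in the Apoe knockout library. Per endothelial marker UMI, the library ratios in cluster 9 were 3.30 for Ly6a, 2.53 for Ly6c1 and 1.21 for Ly6e. The choices on the top cell, on endothelial marker UMIs and on smooth muscle without cluster 15 were chosen after seeing the data. With the whole EC class, the library ratio of Ly6c1 was 9.54, and the double knockout ratios over smooth muscle were 117 for Ly6a and 127 for Ly6c1. Thinning each cell to 1000 UMIs gave library ratios of 19.6 for Ly6a in cluster 9, 14.2 for Ly6a and 2.63 for Ly6e in smooth muscle, and 3.38, 4.09 and 1.41 for Ly6a, Ly6c1 and Ly6e in the whole library. It gave ratios over smooth muscle of 46.0 for Ly6a and 51.1 for Ly6e in the Apoe knockout and 36.1 for Ly6e in the double knockout library, several of which rest on a few UMIs. Restricting to deep cells (1000 UMIs or more, with a mitochondrial share under 10%) gave 1.38 for Ly6e in the whole library, under the fold of 1.5, and 78.6 for Ly6e over smooth muscle in the double knockout library. Genes past the rule in cluster 9 numbered 657, and 212 with a minimum of 100 UMIs, where fewer genes were compared, or 425 with a fold of 2. In smooth muscle they numbered 2167, and 922 with a fold of 2. The cause of the other shifts was not tested. With a pseudocount of 1, 4 of the 5 genes most like Ly6a, 3 of those most like Ly6c1 and 4 of those most like Ly6e were shared with the main choice. No paired analysis was possible because each genotype had 1 library and the labels give no replicate numbers. Depth limits what can be said of immune and fibroblast cells of the double knockout library, where 3 UMIs are 53.6 and 27.9 CPM.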
